A study of Sus scrofa with 8 samples.

Results

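The heat shock proteins and chaperones described here were 9 genes: HSP90AA1, HSP90AB1, HSPA2, HSPA8, HSPB1 and HSPH1 of the cytosol, HSP90B1 and HSPA5 of the endoplasmic reticulum (ER), and HSPD1 of the mitochondria. A probe was taken when its symbol was one of these and its signal was well above background, by Agilent's flag, on at least 1 array. The rule found 6 of the 9 genes, among 3828 genes with a named and tested probe, and 15 of the 43603 probes on the array. All 15 were well above background on all 8 arrays. HSPA8 had 6 probes, HSP90AA1 had 4, HSPH1 had 2, and HSPB1, HSPA5 and HSP90B1 had 1 each. No probe carried the name of HSP90AB1, HSPA2 or HSPD1 in the sources used, and these genes were not analysed here.

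Chaperones bind unfolded stretches of proteins and help them to fold, to assemble or to be handed to degradation. The HSP70 family (HSPA8, HSPA5) works in rounds of ATP hydrolysis, driven by J-domain proteins and reset by nucleotide exchange factors such as HSPH1, and hands many clients to the HSP90 family (HSP90AA1, HSP90B1). Heat, oxidative damage and other stress to cytosolic proteins induce the inducible members through the heat shock factor HSF1, while misfolded proteins in the ER induce HSPA5 and HSP90B1 through the unfolded protein response (sensors ATF6, IRE1 with XBP1, and PERK, the product of EIF2AK3). In lung, surfactant proteins and other secreted proteins pass through the ER chaperones.

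Lung RNA came from female pigs of 6 months of age, 1 pig per array and 2 pigs per group. Tibetan pigs stayed at 3500 m (TH) or were taken down to 40 m at 1 month of age (TL), and Duroc pigs stayed at 40 m (DL) or were taken up to 3500 m at 1 month of age (DH). Each group is 1 breed at 1 site, so that altitude cannot be told apart from other differences between the sites. TL and DH were the moved groups, while TH and DL were not moved. The comparisons ask how breed, altitude and the breed by altitude interaction relate to the level of each transcript.

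The 4 arrays of TH and DL lay on 1 slide and the 4 arrays of DH and TL on the other. The slide contrast therefore equals the interaction, and slide, move and interaction cannot be told apart. TH minus TL, DH minus DL, TH minus DH and TL minus DL all cross the slides, while the breed and altitude effects are built from TH minus DL and TL minus DH, each within 1 slide. The TL arrays stood apart before any normalization, with a median raw signal of 324 to 333.5 against 207.5 to 230 on the other 6 arrays, and 31641 to 31723 probes well above background against 26466 to 29319. In the deposited log2 values both TL arrays lay above the other 6 for 26.6% of the 34406 tested probes and below them for 36.9%. No spot was saturated on any array. Defining lung genes were present (7 of 9 listed epithelial genes had a tested probe, and SFTPC and SFTPA1 had group means of 18.55 to 18.99 on the log2 scale). In whole lung, more cells of a type and more RNA per cell cannot be told apart.

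The main pattern was a higher level in TL lung. Both TL arrays lay above the other 6 in 12 of the 15 member probes and in 4 of the 6 genes at their brightest probe (HSPH1, HSP90AA1, HSPA8 and HSPA5), and below them in 0. By limma at a false discovery rate (FDR) below 0.0001, 7 member probes were higher in TL than in DL and 0 lower, where 37.5% of all tested probes were called and 16% were called higher. In TH minus TL, 7 member probes were lower and 0 higher (37.1% of all called, 16.6% lower). With the processed signals scaled to each array's 75th percentile in place of the deposited values, both TL arrays lay above the other 6 in 6 member probes and below them in 5, against 26.7% and 41.1% of all tested probes; the 6 were the probes of HSPH1, 3 of the 4 probes of HSP90AA1, and HSPA5.

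**Figure D1:**
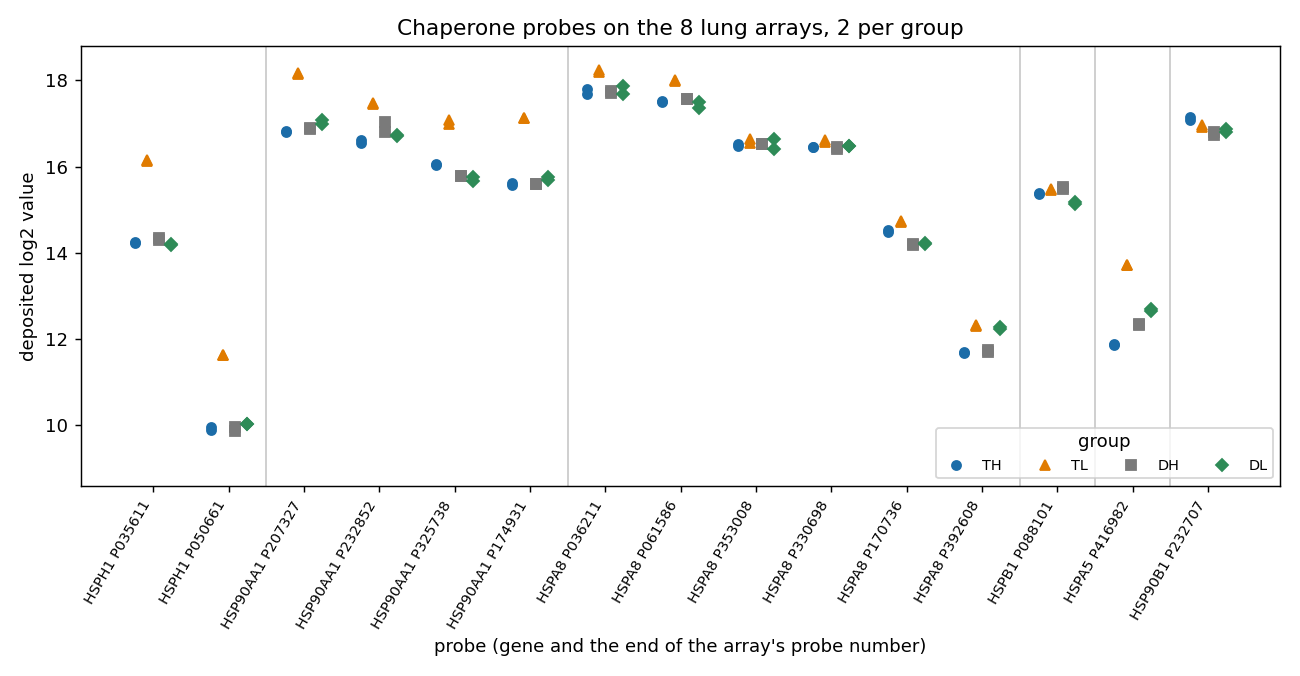
Deposited log2 values (vertical axis) of the 15 chaperone probes (horizontal axis, by gene) on each of the 8 lung arrays; each point is 1 pig, and vertical lines part the genes. The TL triangles sit apart above the other groups for HSPH1, HSP90AA1 and HSPA5, and among the other points for HSPB1, HSP90B1 and the HSPA8 probe P353008.

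HSPH1, a large HSP70 relative (HSP110) that exchanges nucleotide on HSP70, had the largest difference among the members. At its brightest probe, A_72_P035611, the log2 values were 16.16 and 16.14 in TL, 14.24 and 14.25 in TH, 14.34 and 14.29 in DH, and 14.18 and 14.20 in DL. TL was set apart, while the other 3 groups lay between 14.18 and 14.34. TL exceeded DL by 1.96 ± 0.03 log2 (SE; 3.9-fold, limma adjusted p = 6.29e-07) and TH was below TL by 3.74-fold (log2 difference -1.90 ± 0.03, limma adjusted p = 7.44e-07). The interaction was -2.03 ± 0.04 (limma adjusted p = 2.1e-06). The second probe, A_72_P050661, read 11.62 and 11.63 in TL, 9.90 and 9.95 in TH, 9.95 and 9.88 in DH, and 10.02 and 10.03 in DL, with a TL minus DL of 1.60 ± 0.03. Under 75th-percentile scaling TL exceeded DL by 2.4-fold at the brighter probe and by 2.87-fold at the second, both still called. Every call of TL minus DL for these probes held with each of the 8 arrays left out in turn, as did the interaction of the brighter probe. At the second probe the breed, altitude and interaction calls each held in 4 of these 8 fits.

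HSP90AA1, the stress-inducible cytosolic HSP90 that stabilizes kinases and steroid receptors, was likewise highest in TL. Its brightest probe, A_72_P207327, read 18.14 and 18.18 in TL, 17.08 and 17.00 in DL, 16.90 and 16.87 in DH, and 16.82 and 16.81 in TH. TL was again above the rest without overlap, 2.18-fold over DL (log2 difference 1.12 ± 0.04, limma adjusted p = 6.49e-06) and 2.54-fold over TH (limma adjusted p = 3.71e-06). Under 75th-percentile scaling TL over DL was 1.5-fold, still called. The interaction of -1.19 ± 0.05 (limma adjusted p = 2.35e-05) was no longer called when any 1 of the 8 arrays was left out (-1.23 to -1.15). The same held for its altitude effect of -0.75 ± 0.03 and its breed effect of 0.53 ± 0.03, while TL minus DL lost its call only without either TL array (1.15 and 1.10) and TH minus TL only without TL replicate 2 (-1.32). Among the other 3 probes, A_72_P174931 and A_72_P325738 were also called higher in TL than in DL (log2 differences 1.40 and 1.34). The probe A_72_P232852 was not called in any comparison of the deposited values, with a TL minus DL of 0.74 ± 0.08 (limma adjusted p = 0.000449) and a spread between the DH arrays of 17.03 and 16.81. From the raw signal with normexp offset 0 it was called in TH minus TL (-1.06, limma adjusted p = 7.58e-05), and with local background and offset 50 also in TL minus DL (0.91) and the interaction (-1.21).

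HSPA8, the constitutive cytosolic HSP70 (HSC70), differed less and its probes did not give a common pattern. At the brightest probe, A_72_P036211, TL read 18.20 and 18.24, TH 17.81 and 17.68, DH 17.71 and 17.76, and DL 17.68 and 17.88. Both TL arrays were the highest, while the other 3 groups overlapped. The TL minus DL difference of 0.43 ± 0.08 did not pass (limma adjusted p = 0.00448), and it turned to -0.11 with the processed signals at the 75th percentile. Over the 6 probes TL minus DL ranged from 0.06 to 0.57, and 1 of them, A_72_P170736, was called higher (0.51 ± 0.03, limma adjusted p = 4.03e-05, in 0 of the 8 fits with an array left out, and -0.14 with the processed signals). It was also the only HSPA8 probe with a called breed effect, 0.41 ± 0.02, which was 0.08 and not called under 75th-percentile scaling. A_72_P392608 gave another order of groups and was low in both high-altitude groups: 11.67 and 11.70 in TH and 11.69 and 11.74 in DH against 12.32 and 12.30 in TL and 12.24 and 12.27 in DL. The high and low groups did not overlap, and its altitude effect was -0.58 ± 0.02 (limma adjusted p = 1.29e-05, lost with any 1 array left out). Within breeds its TH minus TL was -0.63 ± 0.03 and its DH minus DL -0.54 ± 0.03 (limma adjusted p = 0.000101, just outside the threshold).

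HSPB1, the small heat shock protein HSP27 that holds unfolded proteins and binds actin, was lowest in DL. It read 15.19 and 15.13 in DL, 15.39 and 15.37 in TH, 15.48 and 15.46 in TL, and 15.49 and 15.53 in DH. TL and DH were close (TL minus DH of -0.04 ± 0.03). DH minus DL was 0.35 ± 0.03 (limma adjusted p = 0.000533) and TL minus DL 0.31 ± 0.03 (limma adjusted p = 0.000439), neither past the threshold. The latter turned to -0.37 under 75th-percentile scaling.

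HSPA5 (BiP, GRP78), the HSP70 of the ER and the chaperone that keeps the sensors of the unfolded protein response inactive, was the member with the widest spread over the 4 groups after HSPH1. It read 13.73 and 13.72 in TL, 12.66 and 12.71 in DL, 12.34 and 12.33 in DH, and 11.86 and 11.88 in TH. No group overlapped another, and TH was the lowest. TL exceeded TH by 3.62-fold (TH minus TL of -1.85 ± 0.03, limma adjusted p = 7.44e-07) and DL by 2.06-fold (1.04 ± 0.03, limma adjusted p = 2.98e-06). In Duroc pigs DH minus DL was -0.35 ± 0.03 (limma adjusted p = 0.000308, not called), and the interaction was -1.50 ± 0.04 (limma adjusted p = 4.15e-06). Its altitude effect of -1.10 ± 0.02 (limma adjusted p = 3.17e-06) and its interaction held with each array left out. Within slides, HSPA5 was lower in TH than in DL (-0.81 ± 0.03, limma adjusted p = 2.06e-05), a call lost with any 1 array left out, and higher in TL than in DH (1.39 ± 0.03), a call that held in all 8 such fits. The scalings kept these directions, with TL minus DL at 0.50 and the interaction at -0.98 under the 75th percentile, both called.

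HSP90B1 (GRP94), the ER form of HSP90 that folds integrins and Toll-like receptors, did not share the pattern of HSPA5. Its values were 17.09 and 17.15 in TH, 16.93 and 16.96 in TL, 16.81 and 16.87 in DL, and 16.74 and 16.80 in DH. Both Tibetan groups lay above both Duroc groups without overlap, and DH lay just under DL (DH minus DL of -0.07 ± 0.04). TH minus DH was 0.35 ± 0.04 (limma adjusted p = 0.00132) and TL minus DL 0.11 ± 0.04 (limma adjusted p = 0.0602), neither called. The breed effect of 0.23 ± 0.03 (limma adjusted p = 0.00115) was not called and turned to -0.09 with the processed signals at the 75th percentile.

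**Figure D2:**
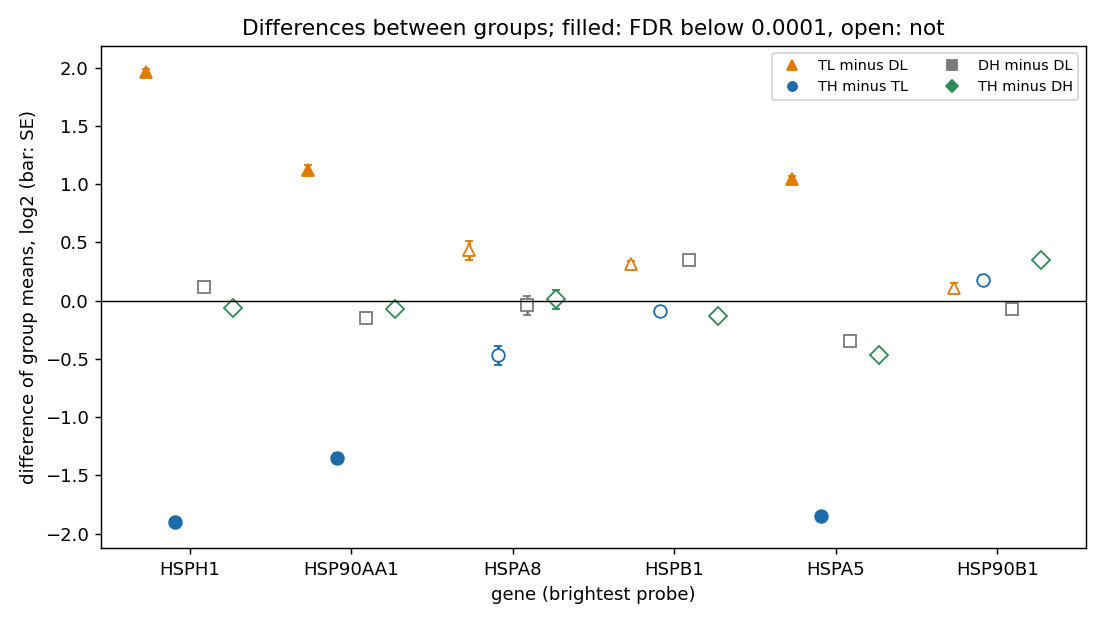
Differences of group means on the log2 scale (vertical axis, bars are SE from limma, 2 pigs per group) for the brightest probe of each gene (horizontal axis); filled symbols passed an FDR below 0.0001. TL minus DL was 1.96 for HSPH1, 1.12 for HSP90AA1 and 1.04 for HSPA5, while DH minus DL and TH minus DH were below the threshold (not filled) for all 6 genes.

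No member probe passed the test between the Duroc groups or between the high-altitude groups. In DH minus DL 0 of the 15 member probes were called by limma (9.95% of all tested probes). Limma with an intensity trend called 3 (7836 of all 34406 probes), and the model without moderated variances 0 (929 of all). At an FDR below 0.05 limma called 7 member probes (20706 of all). In TH minus DH 0 were called by limma (9.33% of all tested probes). The trend fit called 2 (7119 of all) and the model without moderation 0 (1190 of all). At an FDR below 0.05 limma called 6 member probes (20275 of all). With both TL arrays left out of the fit, an alternative added after seeing the data, both limma counts at an FDR below 0.0001 were 0. So few of all probes were then called (0 in DH minus DL and 228 in TH minus DH, against 3424 and 3211) that this says little of the members. The coefficients over the 15 probes ranged from -0.54 to 0.35 in DH minus DL and from -0.47 to 0.35 in TH minus DH.

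Over both breeds and altitudes, 6 member probes had a called breed effect, all higher in Tibetan pigs (27.4% of all tested probes called, 12.8% higher). These were both probes of HSPH1, 3 of HSP90AA1 and 1 of HSPA8. For altitude, 6 were lower at high altitude and 0 higher (26.3% of all called, 12.2% lower), namely both probes of HSPH1, 2 of HSP90AA1, 1 of HSPA8 and HSPA5. The interaction was called negative for 6 probes and positive for 0 (28.4% of all called, 13.5% negative): both probes of HSPH1, 3 of HSP90AA1, and HSPA5. The breed, altitude and interaction effects, TH minus TL and TL minus DL share the TL arrays. Of the contrasts within a slide, TL minus DH called 8 member probes higher and 0 lower (33.9% of all called, 15.1% higher) and TH minus DL called 0 higher and 2 lower, HSPA5 and the HSPA8 probe A_72_P392608 (14.1% of all called, 7.24% lower), both lost with any 1 array left out. Under 75th-percentile scaling the split of the member calls became 3 higher and 5 lower for altitude, 4 higher and 5 lower for TH minus TL, and 6 higher and 1 lower for TL minus DL, while the share of higher among all altitude calls moved from 53.4% to 64.1%, among all TH minus TL calls from 55.2% to 62.3%, and among all TL minus DL calls from 42.7% to 37.9%.

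**Figure D3:**
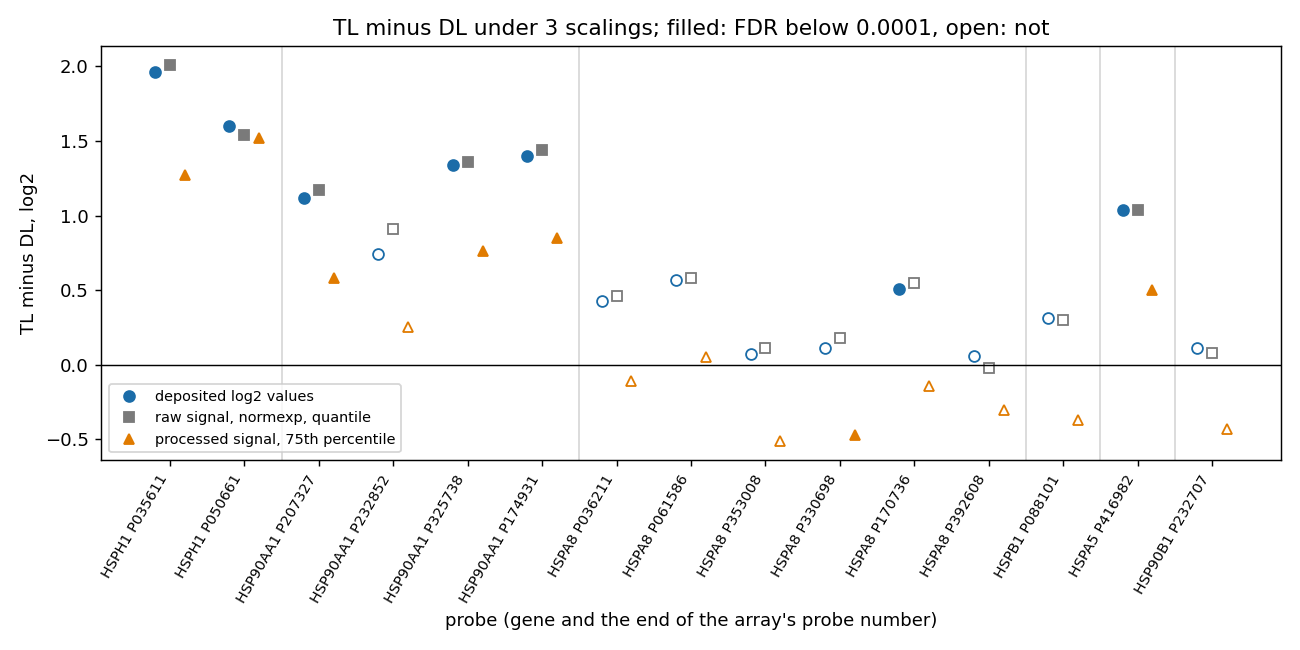
TL minus DL on the log2 scale (vertical axis) for the 15 chaperone probes (horizontal axis) from the deposited log2 values, from the raw signal with quantile normalization, and from the processed signal scaled to each array's 75th percentile; filled symbols passed an FDR below 0.0001. Both probes of HSPH1, 3 of HSP90AA1 and HSPA5 stayed called under all 3 scalings, and HSPB1, HSP90B1 and 5 probes of HSPA8 went below 0 under the last.

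The way probes were named bears on these counts. Of the 15 member probes, 8 were named by a RefSeq accession of the array design (HSP90AA1, HSP90B1, HSPB1 and HSPH1) and 7 only through tables of the study (HSPA5 and HSPA8). HSPA8 came from a list of regulators that the study compiled from the literature, of which the part used here stands in the order of a score computed from these same arrays, and HSPA5 also from a table ranked on them and used in part. Among the 8 named by accession, 5 were called higher in TL than in DL and 0 lower, against 7.85% called higher of the 3005 tested probes with an accession. Both TL arrays lay above the other 6 in 6 of the 8 and below them in 0, against 13.7% and 47% of those probes. Likewise 5 of the 8 had a called positive breed effect (8.89% of those probes), 4 a called negative altitude effect (10.2%), 5 a called negative interaction (5.96%) and 5 were called lower in TH than in TL (10%). All the accession-named probes in these counts were of HSP90AA1 and HSPH1, so that several of them stand for the same transcript. The single probes of HSPB1 and HSP90B1 entered none of these counts.

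Over probes, cytosolic and ER members had close medians, although the ER probes lay far apart. The 13 cytosolic probes were of 4 genes and included 6 of HSPA8, so their medians depend on the number of probes per gene. At the brightest probe the cytosolic interactions were -2.03 in HSPH1, -1.19 in HSP90AA1, -0.44 in HSPB1 and -0.42 in HSPA8. The median interaction was -0.64 over the 13 cytosolic probes and -0.63 over the 2 ER probes, with 5 and 1 probes called negative, against a median of 0.21 over all tested probes. TL minus DL had medians of 0.57 and 0.57, with 6 of 13 and 1 of 2 called higher, against -0.21 over all tested probes. The ER value stands for HSPA5 and HSP90B1, which lay at -1.50 and 0.24 in the interaction; with probes named by accession alone only HSP90B1 was left on the ER side, and the cytosol minus ER difference of medians moved to -1.43.

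Of 103 other genes of the chaperone network, 28 had a tested probe with a symbol. At the brightest probe, 7 of the 28 had a called negative interaction and 0 a positive one, against 28.4% of all tested probes called and 13.5% called negative. All 7 were also called higher in TL than in DL: BAG3, FKBP5, CANX, DNAJC1, HSPA6, HSP70.2 and DNAJA4. With the processed signals at the 75th percentile 6 genes were called negative and 4 positive, and the 7 named genes kept their direction, DNAJA4 without its call. Both TL arrays lay above the other 6 in 14 of the 28 genes and below them in 4, against 26.6% and 36.9% of all tested probes, and in 10 and 12 at the 75th percentile. Some names, as of BAG3, FKBP5, CANX and DNAJC1, came only from tables ranked or selected on these arrays. The shares of all probes are therefore no fair measure for the whole list. Of the 13 companions named by accession, 3 had a called negative interaction and 0 a positive one. Of all tested probes with an accession, 5.96% were called negative.

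BAG3, a co-chaperone that links HSP70 to small heat shock proteins and autophagy, read 12.99 and 12.96 in TL and 9.33 to 9.68 on the other 6 arrays. Its interaction was -3.58 ± 0.04, its breed effect 1.83 ± 0.02 and its altitude effect -1.51 ± 0.02. FKBP5, an HSP90 co-chaperone of steroid receptors whose gene is induced by glucocorticoids, had the most negative interaction of the list, -5.08 ± 0.04 (limma adjusted p = 8.81e-07). It was high in both moved groups, at 14.60 and 14.56 in TL and 12.33 and 12.33 in DH, against 11.11 and 11.15 in DL and 10.72 and 10.68 in TH. FKBP5 was also called in DH minus DL (1.20 ± 0.03) and in TH minus DH (-1.63 ± 0.03), although those calls were lost with any 1 array left out. Its second probe gave an interaction of -5.46 and a breed effect of 0.58 that was not called, against 0.91 at the brightest. CANX (calnexin), a lectin chaperone of ER glycoproteins, was likewise high in TL (9.70 and 9.66), intermediate in TH and DH (7.81 to 8.08) and low in DL (6.44 and 6.49), with an interaction of -3.41 ± 0.06 and a breed effect of 1.51 ± 0.03. DNAJC1, a J-domain protein of the ER membrane, had a breed effect of 1.19 ± 0.03, and its interaction was -3.18 ± 0.07. These 4 genes were named only through tables of the study that were ranked or selected on these arrays.

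HSP70.2, a heat-inducible HSP70 named by accession, had the most negative altitude effect of the list (-1.94 ± 0.03, limma adjusted p = 3.03e-06). It read 17.95 and 17.90 in TL, 16.13 and 16.19 in DL, 15.20 and 15.24 in DH, and 15.03 and 14.94 in TH. The low-altitude groups were the highest in each breed, and DH minus DL was called at -0.94 ± 0.05, though not with any 1 array left out. BAG3 (-1.51) and FKBP5 (-1.34 ± 0.02) followed in the altitude effect. At the brightest probe, the companions called higher at high altitude were GRPEL1, the nucleotide exchange factor of the mitochondrial HSP70 (0.54 ± 0.03), and MANF, a factor released by ER stress (0.37 ± 0.02), and both calls were lost with any 1 array left out. HSPA13, an HSP70-like protein of the ER, was not called at its brightest probe (0.30, limma adjusted p = 0.000109) but was called higher at its other probes (0.45 and 0.49), and A_72_P028176 among these had a called positive interaction (1.27 ± 0.05). Lower in Tibetan pigs were SERPINH1, the collagen chaperone HSP47 (-0.51 ± 0.03), and DNAJC19 of the mitochondrial import motor (-0.24 ± 0.02). Both of these calls were also lost with any 1 array left out. The list had a median breed effect of 0.28, with 11 genes called higher and 2 lower, and all tested probes one of -0.07. With the processed signals at the 75th percentile SERPINH1 was at -0.32, not called, and the split was 7 higher and 3 lower.

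By compartment, the companions called negative in the interaction were 5 of 10 in the cytosol, 2 of 8 in the ER, 0 of 3 in the mitochondria and 0 of 7 among the regulators. Their medians were -0.56, -0.24, 0.01 and 0.03. Regulators named here after their values were seen were XBP1 and ATF4 of the unfolded protein response, with breed effects of 0.29 ± 0.02 and 0.39 ± 0.02, called, and interactions of 0.16 and 0.22, not called. With the processed signals at the 75th percentile the breed effects were -0.02 and 0.06, not called, and the interactions 0.60 and 0.85, called. ATF6, the ER stress sensor, had an interaction of -1.18 ± 0.11 (limma adjusted p = 0.00033, not called) and a called altitude effect of -0.89 ± 0.05. This altitude call and the breed calls of XBP1 and ATF4 were lost with any 1 array left out. HSF2 was not called in any comparison of the deposited values, and HSF1 had no tested probe with its name.

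**Figure D4:**
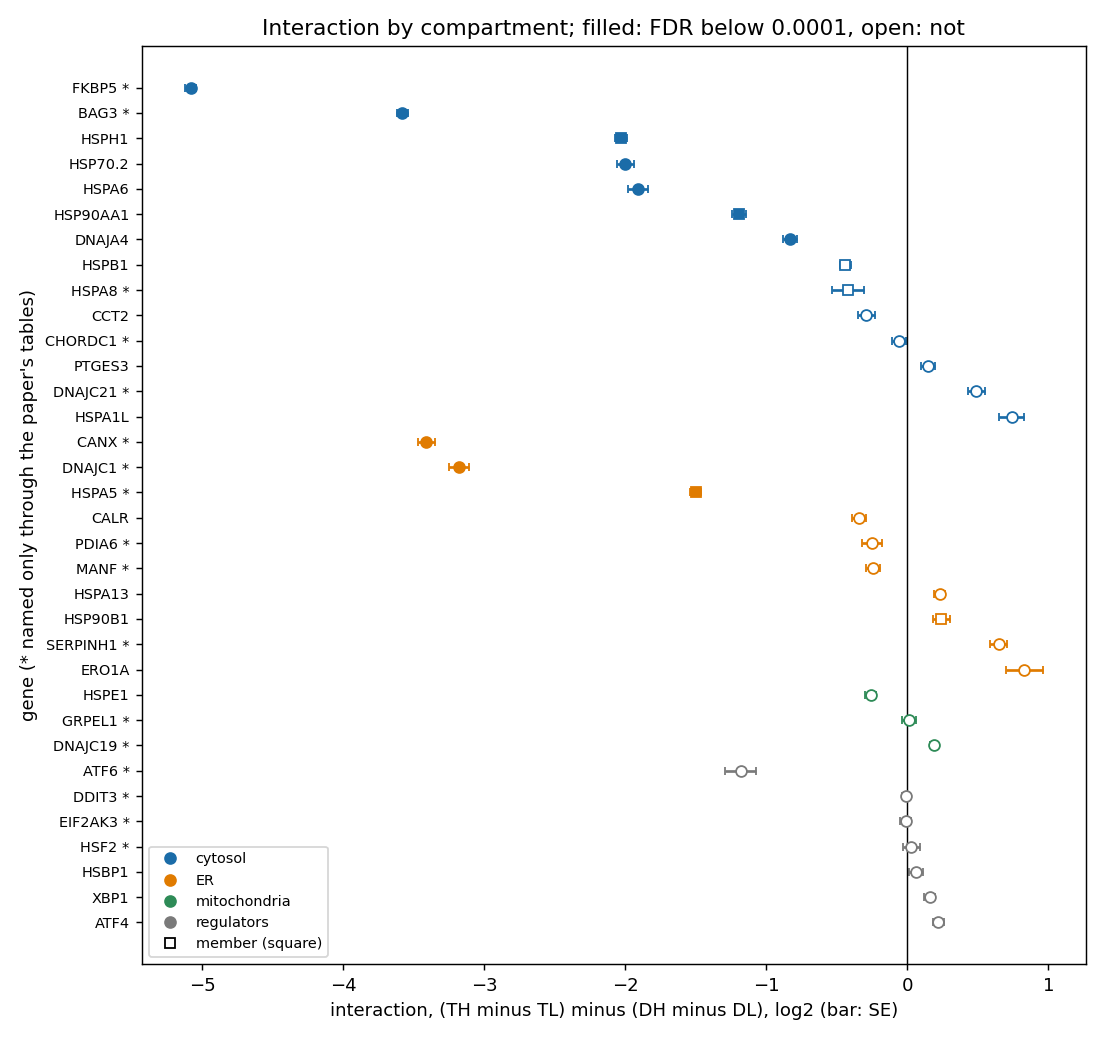
Breed by altitude interaction on the log2 scale (horizontal axis, bars are SE from limma) at the brightest probe of each of the 6 member genes (squares) and 28 companion genes (circles), by compartment; filled symbols passed an FDR below 0.0001 and an asterisk marks a name that came only from the study's tables. Values run from -5.08 for FKBP5 to 0.83 for ERO1A, and every filled symbol is negative.

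Of 13 listed immediate early genes, which respond to handling and tissue collection, 3 had a tested probe (JUN, BTG2 and MYC), FOS and EGR1 not among them. JUN (-0.78) and BTG2 (-0.82) were called lower at high altitude, while MYC was not (0.01, limma adjusted p = 0.835). Their summed level was 18.68 on both TL arrays, 18.62 to 18.69 in DL, 18.01 to 18.04 in DH and 17.77 to 17.79 in TH on the log2 scale. It was higher in both low-altitude groups. HSPA5, HSP90AA1 probes A_72_P207327 and A_72_P174931, HSPH1 probe A_72_P050661 and HSPA8 probes A_72_P330698 and A_72_P392608 had this order too. It was narrow in A_72_P050661 (DH minus DL of -0.11) and A_72_P330698 (-0.05). The brightest probes of the companions HSP70.2, HSPA6, DNAJA4, CCT2 and ATF6 had the order as well. The brightest probes of HSPH1, HSPA8, HSPB1 and HSP90B1 did not have this order, nor did the remaining probes of HSP90AA1 and HSPA8. The TL and DL ranges of the summed level overlapped, with JUN, BTG2 and MYC at 0.03, 0.04 and -0.57 in TL minus DL. Summed levels of other marker lists ran from 17.97 to 18.47 for endothelium (5 of 6 genes tested), from 16.82 to 17.24 for immune cells (3 of 8), from 19.69 to 20.10 for lung epithelium (7 of 9), and from 12.44 to 13.27 for skeletal muscle (9 of 9), lowest in TL for the last. The erythroid genes HBB and AHSP (2 of 5) summed to 14.07 to 14.33 in Tibetan and 12.92 to 13.19 in Duroc lung. The part of these in the chaperone differences was not tested.

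Genes with the most similar profiles over the 8 arrays were sought among 5467 to 5472 tested probes that carried a symbol of another gene. The 5 nearest to HSPA5 were CPSF6 (Pearson's r = 0.9996), ATP2B1 (0.9991), C7H14orf118 (0.999), THY1 and PEG3 (0.9981 each), each highest in TL and lowest in TH. For HSPA8 they were UBE2D2 (0.9782), GAD1, MYOZ2, ACACA and the HSP90AA1 probe A_72_P174931 (0.9666); GAD1, MYOZ2 and ACACA were well above background on only 2 arrays. For HSPH1, added after seeing its values, they were CD83, NIP7, ARHGEF11, PPM1B and RTN3 (0.9994 to 0.9996), and 112 named probes exceeded 0.99. Such values describe 8 arrays in 4 groups, of which TL stands apart, and many of these names came from the study's tables.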

How the data were processed

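Lung RNA of 8 pigs was hybridized to 8 Agilent 1-color arrays. The authors extracted spot intensity with Agilent's Feature Extraction (10.7.3.1 in the file headers, 9.1 in the submitters' processing notes) and deposited a table of log2 values, normalized per the methods by RMA. Its columns share 1 distribution (median 7.395853) and follow the processed signals (Spearman's rho of at least 0.999987); the exact steps are unknown. These deposited log2 values were the main values here.

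Probes well above background on at least 1 array (34406 of 43603) entered a group-means model (limma 3.58.1, run under R 4.3.3) with moderated variances (4 residual degrees of freedom before moderation) and Benjamini-Hochberg adjustment over all tested probes, called at an FDR below 0.0001 as in the methods. Symbols came from RefSeq accessions of the array design, matched to a gene table (2683 of 3250 probes), and from the study's tables (3655 probes, used in part); where both sources named a probe (660), the symbols matched in 98.0%. Each member was described at its brightest probe by the mean over all arrays; companions named were the 3 highest and 3 lowest called in the breed effect, altitude effect and interaction, and other companions were named after their values were seen. Members and lists were chosen with earlier results of these data known. Groups follow the sample labels, and 2 pigs per group limit the precision.

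Alternatives were the raw intensity with normexp (offset 0, or local background and offset 50) and quantile normalization, the processed signals at the 75th percentile, other filters, variance models, thresholds, a replicate block, naming by accession alone, and each array left out. Replicate numbers did not pair the samples. On simulated data of 34406 probes with 200 changed by 4 log2 units in TL, the interaction test recovered 112 with 0 false calls. The largest member interaction was -2.03, and 28.4% of all probes were called in the real data. The simulated rates therefore do not carry over to the calls above. Median differences between the arrays of a group were 0.047 to 0.064 log2 over all probes. Files were read with pandas 2.3.3 and numpy 2.4.6 (Python 3.11.15); matplotlib 3.10.9 drew the plots. No sequences or coordinates of the probes were used here.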

Additional observations from a re-analysis of the deposited data

Results flagged for a closer look

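The altitude difference differed between the breeds by a test of the difference itself, the interaction of the limma fit, for 3 members at their brightest probe. HSPH1 had an interaction of -2.03 on the log2 scale, HSPA5 of -1.5 and HSP90AA1 of -1.19. In HSPH1, TH minus TL was -1.90 and DH minus DL 0.12; in HSPA5 they were -1.85 and -0.35, and in HSP90AA1 -1.35 and -0.15. Since the slide contrast equals the interaction, slide, the move and the interaction cannot be told apart in these values.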

How the results depend on the processing

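Counts below are of member probes called by limma out of 15 unless another list is named. At an FDR below 0.01 and below 0.05 they were 12 and 13 for altitude, 10 and 12 for the interaction, 12 and 14 for TH minus TL, 11 and 12 for TL minus DL, 3 and 7 for DH minus DL and 4 and 6 for TH minus DH, and 13 for breed at 0.05. Over all 34406 probes the counts at these thresholds were 21151 and 24633 for breed, 20670 and 24376 for altitude, 21910 and 25361 for the interaction, 23261 and 26165 for TH minus TL, 23660 and 26624 for TL minus DL, 16162 and 20706 for DH minus DL, and 15289 and 20275 for TH minus DH. The replicate block, whose numbers did not pair the samples (correlations of deviations of -0.0433 to 0.0914), gave 2 for breed, 3 for altitude, 3 for the interaction, 4 companions for breed and 6 for altitude. The intensity trend gave 3 in DH minus DL, 2 in TH minus DH and 16 companions for altitude, and no moderation gave 6 of these. Requiring both arrays of a group above background left 31689 probes tested and gave 1 in DH minus DL and 1 in TH minus DH. Without this filter, limma called 3424 and 3211 of all 34406 probes.

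Companions at an FDR below 0.01 and 0.05 were 23 and 24 for breed, 19 and 22 for altitude, and 19 and 22 for the interaction. By accession names alone, with 13 companions left, they were 5, 4 and 3. From the raw signal with normexp offset 0 they were 8 for breed and 6 for altitude. The cytosol minus ER difference of median interactions, 0 from the deposited values, was -0.04 and -0.08 from the raw signal with offset 0 and 50, -0.06 at the 75th percentile and -1.43 by accession names.

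The 75th percentile gave 3 for breed and 1 in DH minus DL (11430 and 4019 of all 34406 probes). It turned these values at the brightest probe: breed to -0.09 in HSP90B1, -0.08 in HSPA8 and -0.28 in HSPB1; HSPA8 altitude to 0.18 and interaction to 0.06; HSPB1 interaction to 0.19; TH minus TL to 0.21 in HSPA8 and 0.64 in HSPB1; DH minus DL to 0.05 in HSP90AA1, 0.13 in HSP90B1 and 0.14 in HSPA8; HSPA8 TH minus DH to -0.05; and TL minus DL to -0.43 in HSP90B1, -0.11 in HSPA8 and -0.37 in HSPB1. The cause was not tested.

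With 1 array left out, where the lone array of a group is assumed to vary like the other groups, the counts were 1 to 2 for breed, 1 to 3 for altitude, 2 to 3 for the interaction, 4 to 7 for TH minus TL, 3 to 7 for TL minus DL and 0 for DH minus DL and TH minus DH; companions were 3 to 4 for breed, 3 to 4 for altitude and 4 to 5 for the interaction, and the cytosol minus ER difference was -0.04 to 0.03. The low ends for TH minus TL and TL minus DL came without TL replicate 2 (4) and TL replicate 1 (3); without TL replicate 2 the latter was 4. Over all probes these fits called 2239 to 3586 for breed, 1230 to 2394 for altitude, 2678 to 3888 for the interaction, 4095 to 8398 for TH minus TL, 4052 to 8405 for TL minus DL, 0 to 40 for DH minus DL and 110 to 263 for TH minus DH. HSPA8 ran from -0.14 to 0.05 in DH minus DL, above 0 without DL replicate 2, and from -0.05 to 0.07 in TH minus DH, below 0 without TH replicate 1 and (-0.01) DH replicate 1. Over all probes, DH minus DL called 3424, against 7836 with the trend, 1125 from the raw signal with offset 0 and 0 under the block, and TH minus DH 3211, against 7119, 1542 and 208. The block took breed from 9424 to 3697, altitude from 9041 to 2888 and the interaction from 9786 to 4094. Slide as a random block could not be fitted.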
